A study of Mus with 12 samples.

Results

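The calcitonin and adrenomedullin system was followed through murine pregnancy by the 8 genes of its ligands and receptors. They comprise the ligand genes Calca, Calcb, Adm and Adm2, the receptor gene Calcrl, and the accessory protein genes Ramp1, Ramp2 and Ramp3. A row of a deposited gene table was taken for a gene when it carried the symbol and at least 1 Ensembl mouse transcript. All 8 genes had 1 such row in each table, out of 87235 rows for the implantation stage and 40787 rows for the labor stage. RNA had been sequenced from the whole uteri of 12 pregnant ICR mice, an outbred stock, with the age given as 8 weeks and 1 mouse per library. The 4 groups held 3 mice each and were collected early (E0.5 or E4.5) or late in pregnancy (E15.5 or E18.5), with E standing for the day after mating. The labels name no drug, no other treatment and no engineered allele in any group, and they do not say whether embryos, placentas or membranes were removed. E0.5 was compared with E4.5 for the implantation stage and E18.5 with E15.5 for the labor stage, each setting a day that the study regards as low in progesterone against a day under the influence of progesterone. The hormone itself was not measured in these samples.

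Calca is spliced into either calcitonin or the alpha form of calcitonin gene-related peptide (CGRP), Calcb encodes the beta form of CGRP, and Adm and Adm2 encode adrenomedullin and its relative intermedin. Calcrl is a G-protein-coupled receptor that reaches the cell surface only together with a RAMP: with RAMP1 it binds mainly CGRP, and with RAMP2 or RAMP3 it binds mainly adrenomedullin. The receptor couples through Gs to adenylyl cyclase, and the resulting cAMP relaxes vascular and uterine smooth muscle. CGRP peptide in the uterus is carried largely by sensory nerve fibers whose cell bodies lie outside the organ, and calcitonin is known as a progesterone-responsive product of the rat uterine epithelium around implantation.

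Library totals at the implantation stage were 58020989 to 70906881 counts. The labor table holds FPKM (fragments scaled by transcript length and library size) without counts, so the depth behind it is unknown. Smooth muscle, epithelial and stromal marker genes were measured in all 12 libraries. E4.5 replicate 3 stood apart. Its summed FPKM over 8 ovary genes was 1349 against 4.29 to 6.44 in the other 5 libraries of the stage, its 8 smooth muscle genes summed to 209 against 802 to 1217, and its 9 progesterone-induced epithelial genes summed to 40.6 against 706 and 1074 in the other two E4.5 mice. Its mean Spearman correlation with its own day was 0.613, against 0.707 to 0.768 for the other implantation libraries, so values at that stage are also given without it where they move. Among the labor libraries, summed FPKM of 6 yolk sac genes ran from 1.55 to 959 at E15.5 and from 118 to 706 at E18.5, and that of the trophoblast and placenta genes from 3.89 to 36.3 and from 49.0 to 68.7.

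The rows were placed on the chromosomes by the implantation table, and all 8 overlapped the RefSeq gene of the same symbol in GRCm38. Calca and Calcb are neighbors on chromosome 7, with Calca on the minus strand at chr7:114631478-114636357 and Calcb on the plus strand at chr7:114718643-114723365. Adm lies on the same chromosome at chr7:110627661-110629820, and Adm2 at chr15:89322720-89324731. Calcrl spans chr2:84330626-84425468 on the minus strand, Ramp1 spans chr1:91179822-91206790, and Ramp3 spans chr11:6658521-6677475. In both tables the Ramp2 row also carried Vps25, a gene of the endosomal sorting machinery, and covered chr11:101246028-101259545, so its values belong to both genes together. The Calca row summed 7 Ensembl transcripts, and calcitonin and CGRP transcripts could not be told apart. A further 4 rows of the implantation table carried the name Calcrl (3 rows, all on the plus strand, opposite to the gene) or Ramp2 (1 row) without an Ensembl transcript. They had mean values of 1.10 to 2.57 FPKM at E0.5, and their unadjusted p-values in edgeR's quasi-likelihood test were 0.0963 to 0.968.

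Within both tables the receptor, the Ramp genes and Adm were expressed at several FPKM, while Calca, Calcb and Adm2 were low. At E0.5 the order of mean FPKM was Ramp1 (6.96), Calcrl (5.20), Ramp3 (4.86), the Ramp2 row (4.34) and Adm (4.09), and each of these overlapped its neighbor in the order. Adm2 followed at 0.125 FPKM, and its range did not overlap that of Adm. At E4.5 the order was Calcrl (6.33), Ramp3 (5.45), Ramp1 (5.30), the Ramp2 row (4.87) and Adm (3.35), again with every neighbor overlapping. Late in pregnancy Ramp1 and Adm led. At E15.5 they stood at 18.8 and 16.3 FPKM, above the Ramp2 row (7.71), Calcrl (6.93) and Ramp3 (6.85), and the range of Adm did not overlap that of the Ramp2 row. At E18.5 Ramp1 (12.5), Adm (9.21) and the Ramp2 row (8.60) overlapped in turn, and Ramp3 (5.83) and Calcrl (5.21) formed a lower pair. Averaged over the 6 libraries of the labor stage, Ramp1 exceeded 92.7% and Adm 90.9% of the 23763 rows with an Ensembl transcript and at least 0.1 FPKM. The corresponding shares among 25785 implantation rows were 85.3% for Ramp1 and 72.0% for Adm. The stages were deposited as separate tables with different rows. The shares are ranks within a table, their difference was not tested, and no FPKM level was compared between the stages.

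**Figure D1:**
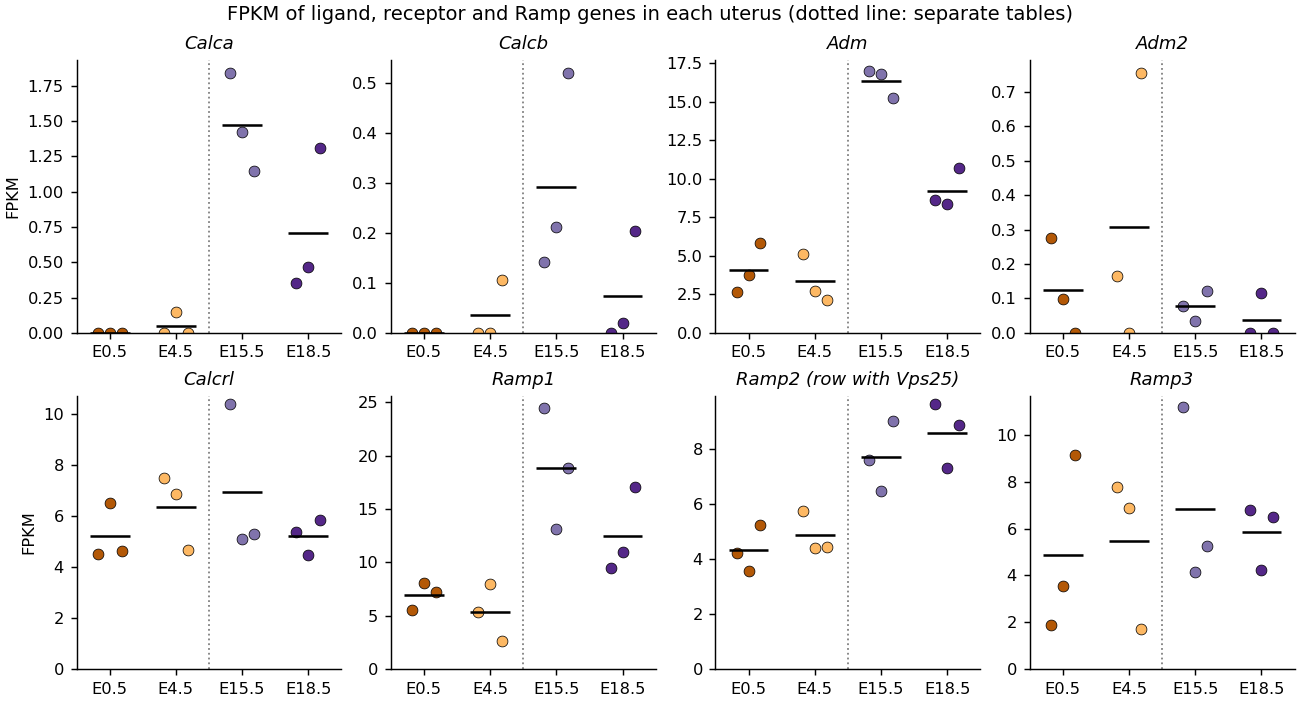
FPKM of the 8 genes (y axis, linear from 0, a separate scale per gene) in each uterus, for both days of the implantation stage and both days of the labor stage. Points are mice in replicate order, bars are means of 3 mice, and the dotted line separates tables whose levels are not comparable. The 3 E18.5 points of Adm, at 8.35 to 10.7, lie below the 3 E15.5 points, at 15.2 to 16.9, while the other genes overlap between the days of a stage.

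The Adm mRNA mean was lower at E18.5 than at E15.5. Adm, whose peptide dilates vessels and supports vascular integrity, measured 16.9, 16.8 and 15.2 FPKM in the 3 E15.5 mice and 8.62, 8.35 and 10.7 FPKM in the 3 E18.5 mice. All E18.5 values lay below all E15.5 values, as in 8.96% of all rows tested. The means were 16.3 ± 0.946 and 9.21 ± 1.27 FPKM (SD, n = 3), 1.77-fold higher at E15.5. On the log2(FPKM + 0.1) scale the difference was −0.82 (SE 0.14, 95% confidence interval −1.15 to −0.50), with a limma p of 0.000548 unadjusted and 0.117 after Benjamini-Hochberg adjustment over 30928 rows. The study called a gene when it changed 2-fold or more (1 on the log2 scale) at an unadjusted p below 0.05. Adm did not reach that fold, and it did not pass the adjusted p. An exact permutation test over the 6 mice gave p = 0.1, the smallest that 3 against 3 allow. The unadjusted p stayed under 0.05 in 14 of 14 alternative settings, with differences from −0.93 to −0.76 and adjusted p from 0.105 to 0.352 in limma.

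Calca and Calcb also had lower means at E18.5, with 1 mouse of that day apart from the other 2. Calca measured 1.84, 1.42 and 1.15 FPKM in the E15.5 mice and 0.354, 0.463 and 1.31 FPKM in those of E18.5. The third E18.5 mouse fell within the E15.5 range and the other two were below it. The difference was −1.12 (SE 0.45, 95% confidence interval −2.18 to −0.06), with a limma p of 0.0412 unadjusted and 0.387 adjusted, which met the study's criterion but not the adjusted p. Leaving out any 1 library kept the call in 1 of 6 cases, that without E18.5 replicate 3, where the difference was −1.61. Without E15.5 replicate 1, 2 or 3 the unadjusted limma p was 0.123, 0.0894 and 0.0532, and without E18.5 replicate 1 or 2 it was 0.126 and 0.119. The call was also lost with a pseudocount of 1, at −0.56, and with the replicate number as a block, at an unadjusted limma p of 0.0700. Calcb was lower still and measured 0.141, 0.211 and 0.519 FPKM in the E15.5 mice and 0, 0.0204 and 0.203 FPKM in those of E18.5, again with the highest E18.5 value in replicate 3. Its difference of −1.22 had a limma p of 0.0723 unadjusted and 0.452 adjusted, and it depended on the pseudocount, at −2.70 with 0.01 and −0.26 with 1. Without E18.5 replicate 3 it was −1.71 (limma p of 0.0186 unadjusted and 0.311 adjusted, within 0.311 to 0.722 over the alternative settings), which met the criterion. Adm2, the gene of intermedin, measured 0.0770, 0.0334 and 0.122 FPKM in the E15.5 mice. At E18.5 it was listed at 0 in replicates 1 and 3 and at 0.115 FPKM in replicate 2, and it was too low to be tested.

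The receptor genes overlapped between E15.5 and E18.5. Ramp1, the partner that gives Calcrl its CGRP affinity, measured 24.5, 13.1 and 18.8 FPKM in the E15.5 mice and 9.43, 11.0 and 17.1 FPKM in those of E18.5, with the highest value of the first day well above every mouse of the second. The means were 18.8 ± 5.67 and 12.5 ± 4.02 FPKM (SD, n = 3), and the difference of −0.59 had a 95% confidence interval of −1.29 to 0.11 (limma, adjusted p = 0.476). With 1 library left out it ran from −0.83 (without E18.5 replicate 3) to −0.38 (without E15.5 replicate 1), with an unadjusted limma p of 0.0256 in the first case, and of 0.0290 when E15.5 replicate 2 was left out. Calcrl itself measured 10.4, 5.11 and 5.29 FPKM in the E15.5 mice and 5.36, 4.46 and 5.82 FPKM in those of E18.5. E15.5 replicate 1 alone stood above the other five mice, and the difference of −0.33 had an interval of −1.01 to 0.35 and was −0.0052 without that mouse. Ramp3 showed the same mouse on top, with 11.2, 4.13 and 5.25 FPKM in the E15.5 mice and 6.79, 4.22 and 6.47 FPKM in those of E18.5, and a difference of −0.13 (interval −1.03 to 0.78). It was 0.29 without that mouse and 0.09 without E18.5 replicate 2. The row of Ramp2, whose product forms the main vascular adrenomedullin receptor, and of Vps25 measured 7.61, 6.46 and 9.04 FPKM in the E15.5 mice and 9.63, 7.30 and 8.88 FPKM in those of E18.5. Its difference was 0.16 (interval −0.25 to 0.57), 0.04 without E15.5 replicate 2, 0.08 without E18.5 replicate 1, 0.28 without E15.5 replicate 3 and 0.27 without E18.5 replicate 2.

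Of the 8 genes, 7 averaged 0.1 FPKM or more across the labor libraries and entered the test. By the study's criterion 1 of the 7 was called (Calca), against 6.05% of all 30928 rows. In limma 0 of the 7 passed an adjusted p of 0.05, against 0.0259% of all rows, and 2 (Adm and Calca) had an unadjusted p under 0.05, against 12.2% of all rows. Values of the days did not overlap for 1 of the 7 (Adm), against 19.9% of all rows. Estimates were negative for 6 genes (Ramp3 among them, which turned positive without either of the libraries named above) and positive for 1, the Ramp2 row, with a median log2 difference of −0.59 against 0.02 over all rows. In whole-organ RNA, fewer cells of a type and less RNA per cell cannot be told apart.

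**Figure D2:**
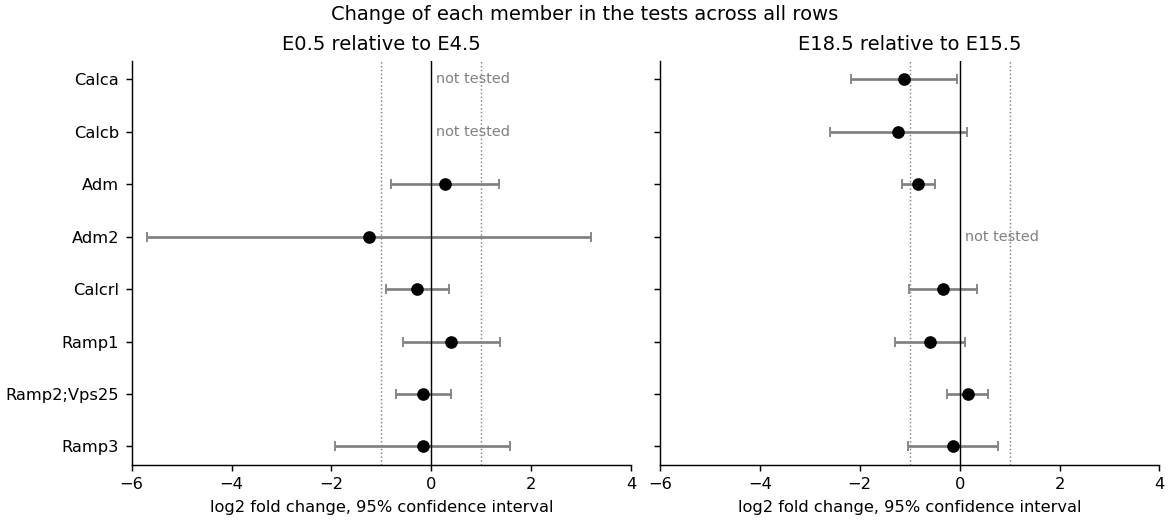
Estimated log2 fold change of each gene (x axis) with its 95% confidence interval, from edgeR for E0.5 relative to E4.5 (left) and limma for E18.5 relative to E15.5 (right). Solid lines mark 0 and dotted lines a 2-fold difference. The interval of Adm (−1.15 to −0.50) and that of Calca (−2.18 to −0.06) leave out 0 at the labor stage, and every interval at the implantation stage holds 0.

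Around implantation the ligand genes gave little signal apart from Adm. Calca had 0 counts in all 3 E0.5 mice and in 2 of 3 E4.5 mice, and 21 counts (0.145 FPKM) in E4.5 replicate 2. Calcb had 0 counts in 5 of 6 libraries and 12 counts (0.105 FPKM) in E4.5 replicate 3, the library that stood apart. A count of 0 allows up to 3 counts, or 0.0423 to 0.0517 CPM (counts scaled by library size) in these libraries, for counting error only, so a level under that limit was not detectable, and neither gene was tested. Adm2 was scattered, with 31, 10 and 0 counts at E0.5 and 19, 0 and 80 counts at E4.5, where the 80 counts (0.755 FPKM) again belonged to replicate 3. Its estimated log2 fold change of −1.25 at E0.5 relative to E4.5 had an interval of −5.69 to 3.2, became 0.48 without that library and was −2.53 without E0.5 replicate 1.

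Adm measured 2.67, 3.78 and 5.83 FPKM in the E0.5 mice and 5.14, 2.74 and 2.16 FPKM in those of E4.5, so that both days spread more than 2-fold and overlapped almost fully. The means were 4.09 ± 1.61 and 3.35 ± 1.58 FPKM (SD, n = 3), and the log2 fold change was 0.28 with an interval of −0.80 to 1.36 (edgeR, adjusted p = 0.791). Leaving out 1 library gave −0.06 (without E0.5 replicate 3) to 0.79 (without E4.5 replicate 1), and 0.03 without E4.5 replicate 3.

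Calcrl, Ramp1, Ramp3 and the row that Ramp2 shares with Vps25 had signal in every implantation library, and none separated the days. Calcrl measured 4.49, 6.49 and 4.61 FPKM in the E0.5 mice and 7.47, 6.86 and 4.66 FPKM in those of E4.5, with a log2 fold change of −0.28 (interval −0.92 to 0.36, edgeR, adjusted p = 0.631). The low E4.5 value belonged to replicate 3. Without that library the E4.5 mean was 7.17 against 5.20 FPKM, the values of the days no longer overlapped, and the log2 fold change was −0.48 (edgeR, adjusted p = 0.263, the lowest of 14 alternative settings that reached up to 0.904). It was −0.10 without E4.5 replicate 1. Ramp1 measured 5.54, 8.08 and 7.26 FPKM in the E0.5 mice and 5.36, 7.93 and 2.60 FPKM in those of E4.5, where the lowest value was once more replicate 3. Its log2 fold change was 0.40 (interval −0.56 to 1.37), 0.06 without that library and 0.78 without E4.5 replicate 2. Ramp3, the partner that is known to respond to sex steroids in several tissues, had the widest spread of the receptor genes, with 1.89, 3.54 and 9.14 FPKM in the E0.5 mice and 7.77, 6.89 and 1.69 FPKM in those of E4.5. Its log2 fold change of −0.17 had an interval of −1.93 to 1.58. With 1 library left out it ran from −1.01 (without E0.5 replicate 3) to 0.23 (without E0.5 replicate 1 or E4.5 replicate 1), and it was −0.60 without E4.5 replicate 3. The Ramp2 row was the steadiest, with 4.21, 3.58 and 5.24 FPKM in the E0.5 mice and 5.75, 4.40 and 4.45 FPKM in those of E4.5, and a log2 fold change of −0.16 (interval −0.71 to 0.39). With 1 library left out it ran from −0.33 (without E0.5 replicate 3) to 0.02 (without E4.5 replicate 1).

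With 6 of the 8 genes tested at the implantation stage, 0 met the study's criterion, against 12.2% of 59732 rows, 0 passed an adjusted p of 0.05 in edgeR, against 1.22% of rows, and 0 had an unadjusted p under 0.05, against 17% of rows. DESeq2 and limma on the same rows also called 0 of the genes. Values of the days overlapped for all 6, whereas they did not overlap for 25.2% of all rows. The median log2 fold change was −0.17 against −0.01 over all rows, with 4 estimates negative and 2 positive. With 1 library left out, Ramp3, the Ramp2 row, Adm2 and Adm each changed sign at least once.

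Whether the difference between the days of a stage was itself unlike at the other stage was tested with limma over the 12 libraries for the 5 genes tested in both tables. The E0.5 minus E4.5 difference exceeded the E18.5 minus E15.5 difference by 1.13 for Adm on the log2(FPKM + 0.1) scale (95% confidence interval 0.15 to 2.11, unadjusted p of 0.0276, adjusted p = 0.206) and by 1.09 for Ramp1 (interval −0.08 to 2.27, adjusted p = 0.312). The value for Adm kept an unadjusted p under 0.05 in 10 of 17 alternative settings, and was 0.87 (unadjusted limma p of 0.0653) without E4.5 replicate 3. The value for Ramp1 was 0.66 without that library. Calcrl (0.06), Ramp3 (−0.06) and the Ramp2 row (−0.33) had intervals that held 0. Without E4.5 replicate 3 these 3 values were −0.14, −0.74 and −0.38. The sign was kept in 13 of 17 alternative settings for Calcrl, 9 of 17 for Ramp3 and 17 of 17 for the Ramp2 row. In limma 0 of the 5 genes passed an adjusted p of 0.05, against 2.7% of 21394 paired rows, and 1 of the 5, Adm, had an unadjusted p under 0.05, against 18.2%.

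Since a receptor needs both Calcrl and a RAMP, the rows were also set against each other within each library, a measure that no scaling of the library alters and that was added after the values had been seen. Ramp1 relative to Calcrl gave log2 ratios of 0.30, 0.32 and 0.65 at E0.5 and −0.48, 0.21 and −0.84 at E4.5. Every E0.5 mouse had more Ramp1 than Calcrl per length, and 2 of the 3 E4.5 mice had less. The means were 0.42 ± 0.20 and −0.37 ± 0.53 (SD, n = 3), and the difference of 0.79 had an exact permutation p of 0.1, the smallest possible, with an adjusted p of 0.5 over 10 such comparisons. Without E4.5 replicate 3 the difference was 0.56 and the days still did not overlap. In the labor table the same ratio was positive in every mouse, at 1.24, 1.36 and 1.83 at E15.5 and 0.82, 1.3 and 1.55 at E18.5, and the days overlapped. The ratio of Adm to Calcrl was 0.71, 1.71 and 1.52 at E15.5 and 0.69, 0.91 and 0.88 at E18.5, with 2 of the 3 E15.5 mice above every E18.5 mouse. The exact permutation p of that difference was 0.3, and the 9 comparisons other than Ramp1 over Calcrl at the implantation stage all overlapped between the days.

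**Figure D3:**
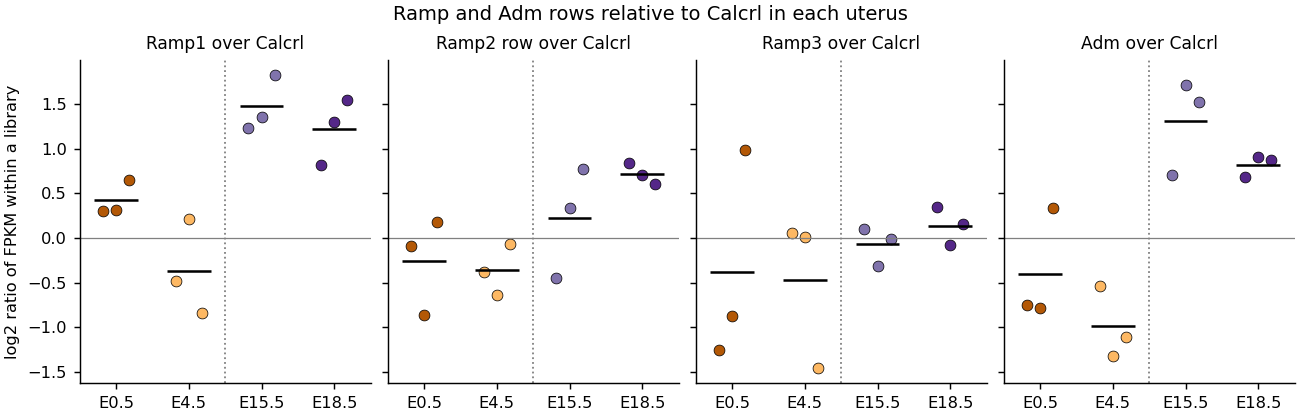
Log2 ratio of 2 FPKM values within a library (y axis) for Ramp1, the Ramp2 row, Ramp3 and Adm, each relative to Calcrl, in every mouse. Bars are means of 3 mice, the line at 0 marks equal FPKM, and the dotted line separates the tables. Ramp1 over Calcrl lies at 0.30 to 0.65 at E0.5 and at −0.84 to 0.21 at E4.5, the one ratio whose days do not overlap.

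The variation among mice of the same day was compared between pairs of genes. Over the 12 libraries, with each gene's log2(FPKM + 0.1) centered on the mean of its day, Pearson's r was 0.79 for Ramp3 and Adm, 0.72 for Ramp1 and Ramp3, 0.71 for Calcrl and Ramp1, and 0.64 for Calcrl and Ramp3. Adm had 0.37 with Calcrl and 0.43 with Ramp1. For the Ramp2 row it was 0.06 with Calcrl, 0.14 with Ramp1, 0.53 with Ramp3 and 0.54 with Adm. Without E4.5 replicate 3, over 11 libraries, the first 4 pairs were at 0.69, 0.48, 0.62 and 0.50, Adm had 0.17 with Calcrl and 0.10 with Ramp1, and the Ramp2 row had −0.04, −0.02, 0.52 and 0.52 with the genes in the order above. These values share libraries and their scaling, and E4.5 replicate 3, E0.5 replicate 3 and E15.5 replicate 1 hold the extreme values of Ramp3. Centering instead on the mean of the 6 libraries of a stage, 10550 protein-coding genes with at least 1 FPKM in each table were ranked by their likeness to 3 of the genes over the 12 libraries. The profile of Adm was most like those of Itgb2 (r = 0.91), Dapk2 (0.89) and Ncf4 (0.89), where Itgb2 encodes the beta chain of the leukocyte integrins and Ncf4 a subunit of the phagocyte oxidase. Calcrl was most like Rpl36a (0.91), a ribosomal protein gene, and Gzma and Ctsw (both 0.90), which are expressed by cytotoxic lymphocytes. Calca was most like Gatm (0.88), an enzyme of creatine synthesis, Pi15 (0.88), and the row of Rps20 and Gm24016 (0.87). Calca was at 0 FPKM in every implantation library except E4.5 replicate 2, so its profile at that stage hangs on 1 library. With so many genes ranked on so few libraries these are descriptions of the profiles only.

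Of the other receptors and ligands of the family, Calcr and Iapp were near 0 and the rest were expressed. Calcr, the calcitonin receptor, had a mean of 0 FPKM at both implantation days and at most 0.0437 FPKM in a labor library, and Iapp, the gene of amylin, was listed above 0 in 1 implantation library. Of 5 such genes, Ackr3, Crcp and Gpr182 were tested at each stage and 0 met the criterion in either direction, against 12.2% and 6.05% of all rows. Ackr3, an atypical receptor that scavenges adrenomedullin as well as chemokines, measured 26.4, 18.9 and 22.0 FPKM in the E18.5 mice and 8.59, 13.3 and 19.6 FPKM in those of E15.5. Its values overlapped by 1 mouse and its log2 difference was 0.76 (limma, adjusted p = 0.378), opposite in sign to that of Adm. Crcp, the receptor component protein that couples Calcrl to signaling, had a log2 fold change of −0.19 for E0.5 against E4.5 and −0.11 for E18.5 against E15.5.

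The next list holds the enzymes that process and clear these peptides. Of 10 genes for processing and clearance, 8 were tested at the implantation stage, where 1 was higher at E0.5 and 1 lower, against 6.37% and 5.82% of all rows. The row of Pam, the enzyme that amidates the carboxyl end of CGRP and adrenomedullin, also carried B230216N24Rik at this stage and was higher at E0.5 by the study's criterion, at 7.93, 8.92 and 8.20 FPKM in the E0.5 mice against 3.18, 3.25 and 5.83 FPKM in those of E4.5 (log2 fold change 1.05, edgeR, adjusted p = 0.108). The call was lost without E0.5 replicate 2, E4.5 replicate 1 or E4.5 replicate 2. Without E4.5 replicate 3 the log2 fold change was 1.36 (adjusted p = 0.00485 in edgeR). Pcsk5, a proprotein convertase, was far lower at E0.5, at 1.09, 1.39 and 0.896 FPKM against 13.2, 11.5 and 3.10 FPKM (−3.05, edgeR adjusted p = 0.0608), and met the criterion in 14 of 14 alternative settings. It was −3.47 without E4.5 replicate 3 (adjusted p = 0.00115 in edgeR). At the labor stage 1 of 9 tested genes was higher, against 3.11% of rows, and 0 were lower. That gene was Cpe, carboxypeptidase E, at 34.2, 43.3 and 44.7 FPKM in the E18.5 mice against 11.2, 20.3 and 29.5 FPKM in those of E15.5 (1.09, limma, adjusted p = 0.277), a call lost without E15.5 replicate 1. Pam had means of 8.56 FPKM on E18.5 against 8.64 FPKM on E15.5.

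Downstream of the receptor lies the cAMP machinery. Of 20 genes for Gs, adenylyl cyclases, protein kinase A, its targets and arrestins, 19 were tested at the implantation stage, where 1 was lower at E0.5, against 5.82% of all rows, and 0 were higher. This was Adcy3, an adenylyl cyclase, at 1.19, 1.16 and 0.952 FPKM in the E0.5 mice and 2.76, 2.74 and 4.67 FPKM in those of E4.5, the days well apart (−1.60, edgeR adjusted p = 0.0444). It met the criterion in 14 of 14 alternative settings, and its adjusted p was under 0.05 in 1 of the 6 fits that left out a library, the fit without E4.5 replicate 3 (−1.33, adjusted p = 0.0101 in edgeR). Gnas, the gene of Gs itself, measured means of 14.6 and 16.5 FPKM. At the labor stage 0 of 20 met the criterion, against 6.05% of all rows, and Adcy3 stood at means of 1.11 FPKM on E18.5 against 1.36 FPKM on E15.5. Of 10 cAMP phosphodiesterase genes, which end the signal, all were tested at both stages and 0 met the criterion, against 12.2% and 6.05% of all rows. Their median log2 difference at E18.5 relative to E15.5 was 0.32 against 0.02 over all rows, with 2 of the 10 estimates negative.

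The nitric oxide and cGMP branch is another route to smooth muscle relaxation. Of 12 genes, 10 were tested at the implantation stage, and 2 were higher and 1 lower at E0.5 by the criterion, against 6.37% and 5.82% of all rows. Pde5a, the cGMP phosphodiesterase, measured 16.6, 13.5 and 14.5 FPKM in the E0.5 mice and 7.84, 8.31 and 4.2 FPKM in those of E4.5 (1.13, edgeR, adjusted p = 0.126), and without E4.5 replicate 3 it lost its call by the fold, at 0.86 (adjusted p = 0.0205 in edgeR). The other gene that was higher, Nos1, lay under 1 FPKM. Nos2, the inducible nitric oxide synthase, measured 0.147, 0.128 and 0.159 FPKM in the E0.5 mice and 0.786, 0.227 and 6.97 FPKM in those of E4.5, with replicate 3 far above the other mice, and its estimate was −4.13, or −1.84 without that library (edgeR adjusted p = 0.156 with all libraries). The call was lost with limma on log2(FPKM + 0.1), at −2.38, and on log2(FPKM + 1), at −1.18. At the labor stage 0 of 6 tested genes met the criterion, against 6.05% of all rows. Among 12 genes of other relaxant peptides and their receptors, 1 was higher and 1 lower of 6 tested at the implantation stage, against 12.2% of all rows called either way, and 0 of 5 were called at the labor stage, against 6.05%. Vipr2, a receptor of vasoactive intestinal peptide that also couples to Gs, measured 0.632, 0.986 and 1.13 FPKM in the E0.5 mice and 3.37, 6.93 and 0.631 FPKM in those of E4.5 (−1.98, edgeR, adjusted p = 0.263), and kept its call in 6 of 14 alternative settings, among them the fit without E4.5 replicate 3 (−2.48, adjusted p = 0.0128 in edgeR). The peptide gene Vip was listed at 0 in every implantation library. Rxfp2, the higher gene, lay under 1 FPKM.

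Adm is a textbook target of hypoxia signaling, so 9 other hypoxia-responsive genes were set beside it. At E18.5 the criterion was met by 2 of 9, both lower, against 2.93% of rows lower. Ankrd37 measured 1.21, 1.68 and 1.87 FPKM in the E18.5 mice and 4.5, 3.15 and 2.9 FPKM in those of E15.5 (−1.10, limma, adjusted p = 0.167), and Bnip3, a mitophagy receptor, 10.3, 14.0 and 14.7 FPKM against 38.9, 22.6 and 19.9 FPKM (−1.01, adjusted p = 0.230 in limma). Both calls were lost without E15.5 replicate 1, without E18.5 replicate 1 and with a pseudocount of 1 (−0.80 for Ankrd37 and −0.96 for Bnip3). The whole list had 8 of 9 negative estimates and a median of −0.27, against 0.02 over all rows. Vegfa, the vascular growth factor, had means of 6.73 FPKM on E18.5 against 7.72 FPKM on E15.5. At the implantation stage the same list went both ways, with 3 genes higher and 1 lower at E0.5, against 6.37% and 5.82% of all rows. Egln3, an oxygen-sensing prolyl hydroxylase, had a log2 fold change of 3.97, Ankrd37 of 2.39 and Car9, a carbonic anhydrase, of 1.53 (edgeR adjusted p = 0.0599), while Slc2a1, a glucose transporter, had −1.42 (edgeR adjusted p = 0.171) and lost its call without E0.5 replicate 2. Without E4.5 replicate 3 Slc2a1 was at −1.80 (adjusted p = 0.00283 in edgeR) and Car9 at 1.59 (adjusted p = 0.0314). The Ankrd37 values of both stages thus passed the criterion, in opposite directions, where those of Adm passed it at neither. The part of hypoxia in the Adm values was not tested.

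**Figure D4:**
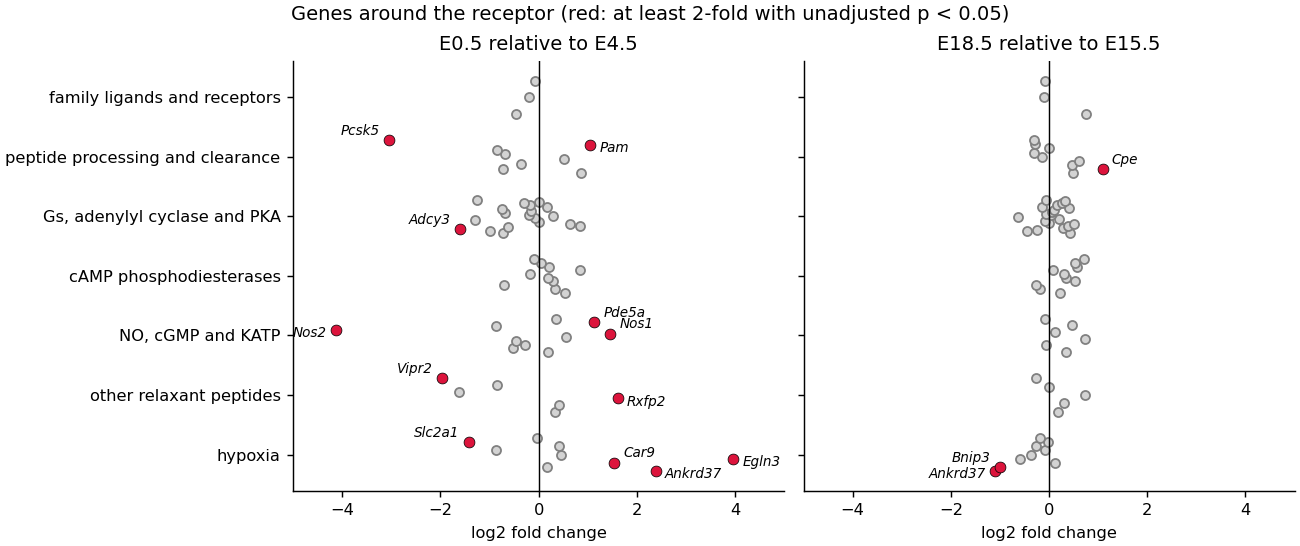
Log2 fold changes (x axis) of the tested genes in 7 lists around the receptor (y axis) at the implantation stage (left, edgeR) and the labor stage (right, limma). Each point is a gene, and red points with names met the study's criterion. The family list and the cAMP phosphodiesterases hold no red point at either stage, and the labor panel holds Cpe, Bnip3 and Ankrd37 only.

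Some cell type marker sums also differed between the days. At the labor stage the summed FPKM of 10 blood endothelial genes was 165 to 194 at E15.5 and 98.6 to 127 at E18.5 without overlap, with 1 of the 10 lower by the criterion, against 2.93% of all rows. Over the list, 5 of 10 estimates were negative and the median was 0.04. The lower gene was Cdh5, the endothelial cadherin, whose means were 111 FPKM at E15.5 and 47.9 FPKM at E18.5 (−1.26, limma adjusted p = 0.153). Without Cdh5 the other 9 genes summed to 64.1 to 65.4 at E15.5 and 59.5 to 65.8 at E18.5, which overlapped. Of 8 epithelial genes 5 were higher at E18.5, against 3.11% of all rows, and the sums were 210 to 471 at E15.5 and 675 to 939 at E18.5. Lymphatic endothelial genes summed to 94.7 to 127 at E15.5 and 161 to 208 at E18.5, with 0 of 5 meeting the criterion, against 6.05% of all rows. Smooth muscle sums (2929 to 3949 and 3533 to 4449) and leukocyte sums (273 to 337 and 256 to 363) overlapped, and 8 nerve genes summed to 3.40 to 4.48 at E15.5 and 7.08 to 9.71 at E18.5. Of the 4 nerve genes tested 2 had negative estimates and the median was 0.01, while 1, Uchl1, was higher by the criterion, against 3.11% of all rows (means of 2.84 FPKM at E15.5 and 7.17 FPKM at E18.5). Progesterone-induced epithelial genes summed to 55.0 to 98.5 at E15.5 and 41.9 to 54.5 at E18.5 without overlap. Of 8 of them tested 6 had negative estimates, with a median of −0.22, and 1 was higher and 1 lower by the criterion, against 3.11% and 2.93% of all rows. Erythroid sums overlapped (889 to 1676 at E15.5 and 543 to 1283 at E18.5). Of 6 erythroid estimates 6 were negative, with a median of −0.62, and 1 gene was lower, against 2.93%. Of 6 trophoblast and placenta genes tested 2 were higher, against 3.11%, and 2 estimates were negative. The part of these markers in the values of Adm and Calca was not tested.

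At the implantation stage, blood endothelial genes summed to 35.9 to 45.8 at E0.5 and 56.4 to 89.1 at E4.5, with 3 of 10 lower at E0.5 by the criterion (Cdh5, Kdr and Emcn), against 5.82% of all rows. Cdh5 had −1.48 (edgeR adjusted p = 0.0922) and Emcn −1.12 (edgeR adjusted p = 0.155). Without E4.5 replicate 3 Cdh5 was at −1.76 (adjusted p = 0.00579 in edgeR) and Emcn at −1.37 (adjusted p = 0.0221). Kdr kept its call in 7 of 14 alternative settings and Emcn in 12 of 14. Both calls were lost without E4.5 replicate 1 and with limma on log2(FPKM + 1). That of Kdr was also lost without E0.5 replicate 3 and with limma on log2(FPKM + 0.1). The 1 FPKM filter, the replicate block and upper quartile scaling removed it as well. Nefm, a neurofilament gene of the nerve list, was listed at 0 in every library of the stage. Leukocyte genes summed to 73.8 to 81.4 at E0.5 and 38.4 to 58.6 at E4.5, with 2 of 6 higher at E0.5 by the criterion, against 6.37% of all rows. Epithelial genes summed to 256 to 318 and 95.2 to 224 on these days, with 3 of 8 higher by the criterion, against 6.37% of all rows. Stromal sums (399 to 596 and 214 to 370) and fat sums (39.0 to 85.6 and 11.8 to 37.1) did not overlap either. By the criterion 2 of 7 stromal genes were higher and 1 lower, against 6.37% and 5.82% of all rows, and 3 of the 7 estimates were negative. Of 6 fat genes 1 was higher, against 6.37%. Lymphatic endothelial genes summed to 13.0 to 17.0 at E0.5 and to 4.46, 2.11 and 20.6 at E4.5, an overlap through replicate 3 only. Of their estimates 5 of 5 were positive, with a median of 0.96, and 1 gene was higher by the criterion, against 6.37% of all rows. The 8 nerve genes summed to 0.668 to 1.43 at E0.5 and to 1.91, 1.36 and 15.7 at E4.5, highest in replicate 3. All 9 progesterone-induced epithelial genes were lower at E0.5 by the criterion, against 5.82% of all rows, and 4 of them had an adjusted p under 0.05 in edgeR, against 1.22% of all rows, while Calca, for which the same hormone is known as an inducer in the rat, was counted in 1 of the 3 E4.5 libraries. E4.5 replicate 3 had the lowest Ramp1, Ramp3 and Adm values of the 6 mice and the highest Adm2 and Calcb values, and the sums of its ovary and smooth muscle genes were the highest and the lowest of the stage. The part of that library's tissue makeup in those values was not tested.

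**Figure D5:**
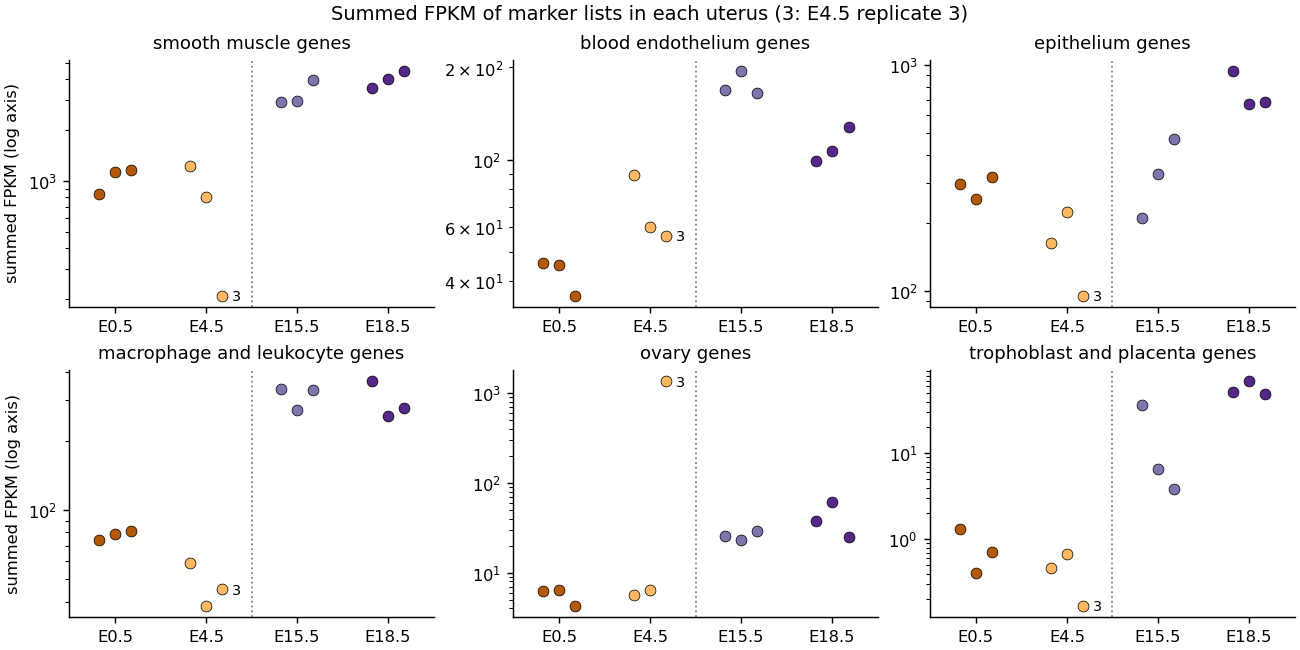
Summed FPKM of marker gene lists (y axis, log scale) for smooth muscle, blood endothelium, epithelium, leukocytes, ovary, and trophoblast and placenta in each mouse, with the dotted line between the separately deposited tables. E4.5 replicate 3, marked 3, stands at 1349 for the ovary and 209 for smooth muscle. The blood endothelium sums of E15.5 (165 to 194) lie above those of E18.5 (98.6 to 127), but overlap once Cdh5 is left out.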

How the data were processed

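The study's methods and labels describe bulk RNA sequencing of whole uteri, 1 mouse per library. The labels describe poly(A) selection and the methods rRNA depletion, and strand handling is not given in the sources used here. FPKM values were made by the authors (Cutadapt, Bowtie2 and Tophat2, StringTie and Ballgown), with a separate deposited table for either stage. The submitters' processing notes name Bowtie 0.12.2, HISAT2 2.0 and StringTie 1.3.0. The implantation table also holds whole-number counts deposited by the authors, with the assignment of reads to rows not stated, and 0.0001 FPKM in place of 0, which was set to 0. Unnamed rows (1.02% to 1.86% of counts) stand for none of the 8 genes.

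In R 4.3.3, counts of the implantation stage were tested by the quasi-likelihood test of edgeR 4.0.16 with TMM factors. Labor values were tested as log2(FPKM + 0.1), which understates changes of low genes, by limma 3.58.1 with a mean-variance trend. Rows averaging 0.1 FPKM or more within a stage were kept, and p-values were adjusted by Benjamini-Hochberg over all tested rows. The stage difference was fitted with limma over 12 libraries on rows paired by Ensembl transcripts. Fits were tested on simulated data. Alternatives were DESeq2 1.42.0, other scalings, filters, pseudocounts and variance models, replicate number as a block, and fits that left out 1 library. Ratios and correlations without E4.5 replicate 3 and endothelial sums without Cdh5 were added after seeing the data. Single values were compared by exact two-sided permutation tests with SciPy 1.17.1. The genes and lists were chosen with earlier results of these data known. Named list genes met the study's criterion and averaged 1 FPKM or more, at most 4 per list and stage, and those under 1 FPKM, Ackr3, Crcp, Gpr182, Gnas, Vegfa, Uchl1 and Vip were named after their values were seen. With the labels giving 1 mouse each, p-values measure the spread between mice.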

Additional observations from a re-analysis of the deposited data

How the results depend on the processing

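None of the 83 alternative values of the genes at the implantation stage crossed the criterion. Of 97 at the labor stage, 88 stayed on their side of it, 7 lost it (all Calca: pseudocount of 1, the block and 5 left-out libraries) and 2 gained it (Calcb), with no called value changing sign. The count of genes called at the labor stage was 1, and 0 with a pseudocount of 1 and 0 to 2 with 1 library left out. Among all rows of the earlier stage, 730 passed the adjusted p in edgeR, 5816 in DESeq2, 1126 when rows averaged 1 FPKM or more, and 0 to 3629 with 1 library left out, the highest without E4.5 replicate 3. The criterion was met there by 7284 rows, by 3066 with limma on log2(FPKM + 1) and by 4396 under the 1 FPKM filter. At the later stage 8 rows passed the adjusted p, 27 with limma without trend, 3 under the 1 FPKM filter, 4 without a filter, 4 with a pseudocount of 1 and 0 to 28 with 1 library left out. The criterion was met by 1870 rows, by 799 under the 1 FPKM filter and by 514 with a pseudocount of 1. Fewer rows were tested under that filter, and the cause was not tested for the other settings.

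Same-numbered replicates did not deviate together (correlations of −0.063 to 0.018 at the first stage, −0.049 to 0.017 at the second), so the numbers pair nothing. With the replicate block, 0 rows passed the adjusted p at the earlier stage and 2 at the later one, Calca missed the criterion (limma p of 0.0700 unadjusted) and Calcb met it (0.0240), leaving 1 gene called. The low counts of Calca, Calcb and Adm2 limit what depth can show at the earlier stage, and labor depth is unknown.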
